A study of Mus musculus with 2 samples.

Results

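*Scx*, *Mycl*, *Myb*, *Rph3a* and *Slc9a9* are 5 of the 31055 features counted in these data. They were chosen by name, as genes that earlier results of the same data had placed in early differentiating pituitary cells, so that their higher level in early than in stem cells is a description here and supports nothing. That difference was present for all 5 in both libraries. The label "early" described *Rph3a* best, whose level was about 3 times higher in early than in late differentiating cells. It went against the data for *Mycl*, which was higher in late cells. *Myb* had overlapping levels in early and late cells, though in the male library the overlap ended, with early cells higher, once proliferating cells were left out.

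*Scx* encodes scleraxis, a basic helix-loop-helix (bHLH) transcription factor known for its part in tendon progenitors. *Mycl* encodes L-MYC, a member of the MYC family that binds DNA together with MAX, and *Myb* encodes a transcription factor known from blood progenitors. *Rph3a* encodes rabphilin 3A, which binds RAB3 and RAB27 proteins on secretory vesicles, and *Slc9a9* encodes an exchanger of sodium and hydrogen ions in endosomes. In the pituitary, stem cells carry the transcription factors SOX2 and SOX9 and give rise to hormone-secreting cells. The genes set beside the 5 are *Cdkn1a*, which encodes an inhibitor of cyclin-dependent kinases, *Dll1*, which encodes a ligand of Notch receptors, *Lef1*, whose product acts on WNT target genes, and *Sox2*.

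The data are 2 droplet libraries of GFP-positive cells sorted from mouse pituitaries at postnatal day 3, one from males and one from females. Each pooled the glands of 3 animals, so that no animal can be told apart within a library. All animals were Sox9iresGFP/+, with 1 allele that makes GFP from the *Sox9* locus, and no group lacked it. GFP outlasts SOX9, so that progeny of stem cells are sorted with the stem cells. The male library had 10569 barcodes and the female library 5796, and 19 barcodes were found in both. After removing cells with fewer than 50 genes or a high mitochondrial share, 10410 male and 5711 female cells were left, with 105883748 and 62830305 unique molecular identifiers (UMIs). Median depth was 8902.5 UMIs for male and 9789 UMIs for female cells, but 3627 male and 287 female cells had fewer than 5000. With 1 library per sex there is no replicate, and no test is given. Levels are in CPM, the usual scaling of counts to one common total, here with the UMIs of all cells of a class added up, and are followed by their exact Poisson 95% interval in parentheses. For shares of cells the interval is the exact Clopper-Pearson one, at 95% too, and both kinds cover counting error only. The limits of a ratio come from the ends of the 2 intervals that make it widest. Values given as a pair are for the male and then the female library.

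Classes were set by the UMIs of marker genes, none of which is 1 of the 5 genes. Stem cells had at least 2 UMIs of *Sox2* and 1 of *Sox9*, and none of *Cdkn1a*, *Dll1* or *Lef1* (1230 male and 1322 female cells). Early cells had UMIs of both *Cdkn1a* and *Dll1* (407 and 310 cells). Late cells had at least 2 UMIs of *Smoc2* and 1 of *Pou3f4*, *C1ql2* or *Shh* (503 and 393 cells), and 86 and 58 cells met both rules. Cells of all these classes also had fewer than 5 UMIs of the mesenchymal gene *Dcn*. They had fewer than 20 UMIs of *Cga*, 3 of *Pou1f1* and 100 of *Pomc*, which are endocrine genes. Cells with markers of the gonadotroph lineage numbered 431 and 37, those of the POU1F1 lineage 690 and 262, those of the POMC lineage 382 and 132, and mesenchymal cells 556 and 305. The labels call the samples stem cells, while these endocrine and mesenchymal cells were also in the sort. No class took 6074 male cells (58.3%) and 2889 female cells (50.6%), which had a median of 3558.5 and 9027 UMIs, and 51 and 3 cells met several endocrine or mesenchymal rules. The unclassed cells held between 37.3% and 53.8% of the UMIs of each gene, so that the classes describe cells with clear markers and not the whole sort.

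Early cells were checked against markers of other cell types. Low values of the mesenchymal, gonadotroph, POU1F1 and POMC markers were partly set by the limits on *Dcn*, *Cga*, *Pou1f1* and *Pomc*. They are therefore no independent check. *Epcam*, an epithelial gene, was at 2119 and 2062 CPM in them, and *Gadd45g*, a growth arrest gene listed with the early markers but not used by the rule, was at 601 and 535 CPM, against 101 and 83.6 CPM in stem cells and 914 and 731 CPM in late cells, which had more of it. The 6 mesenchymal markers summed to 29.4 and 14.9 CPM (6 and 5 of them above 0, *Col1a2* highest), against 14242 and 16638 CPM in mesenchymal cells. The 5 endothelial markers summed to 2.30 and 1.22 CPM, the 5 myeloid markers to 0.144 and 5.87 CPM, the 5 pericyte markers to 5.17 and 1.96 CPM, the 4 pituicyte markers to 4.74 and 3.18 CPM, the 4 erythroid markers to 1.29 and 1.22 CPM and the 4 Schwann cell markers to 10.5 and 9.29 CPM. *Cdh5*, *Ptprc*, *Nkx2-1*, *Alas2* and *Foxd3*, which define endothelial, blood, pituicyte, erythroid and Schwann lineage cells, had no UMI in the early cells of either library. *Pomc* was at 149.7 and 41.6 CPM, against 247 and 33.8 CPM in mesenchymal cells, where it is read as background, while the gonadotroph markers summed to 38.2 and 28.6 CPM and the POU1F1 lineage markers to 63.1 and 83.9 CPM. The doublet caller Scrublet scored 7.37% and 7.74% of early cells among its highest, against 8.33% and 4.57% of all cells.

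The genes lie on 5 chromosomes of mm10. *Scx* (ENSMUSG00000034161) is at chr15:76457452-76459458 on the plus strand, within *Bop1* on the other strand. *Mycl* (ENSMUSG00000028654) is at chr4:122995652-123002485 on the plus strand. *Myb* (ENSMUSG00000019982) is at chr10:21124935-21160984 on the minus strand and overlaps the antisense gene *Gm26577*. *Rph3a* (ENSMUSG00000029608) is at chr5:120940499-121010092 on the minus strand. *Slc9a9* (ENSMUSG00000031129) is at chr9:94669909-95230445 on the plus strand and overlaps the antisense gene *Gm16262*. Whether the counting used strand is not given in the sources used here. *Gm16262* had no UMI in either library, and *Gm26577* had 15 and 8 UMIs over all cells. *Bop1* was at 12.4 and 11.4 CPM in stem cells, 20.4 and 18.1 CPM in early cells and 15.5 and 15.1 CPM in late cells.

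Promoters from 250 bases before to 50 bases after a RefSeq start were matched for 4 of the 5 genes (GRCm38.p6), all but *Scx*. The RefSeq start of *Mycl* lies after the start of the gene as placed above, so that its stretch is within the gene there, while that of *Rph3a* is at the start placed above. The first promoter of *Mycl* and of *Rph3a* is shown because these genes had the most different order of early and late cells. Capitals mark every CANNTG, the E-box core that bHLH factors such as scleraxis and the MYC family are known to bind, a pattern that covers both strands at once.
Mycl: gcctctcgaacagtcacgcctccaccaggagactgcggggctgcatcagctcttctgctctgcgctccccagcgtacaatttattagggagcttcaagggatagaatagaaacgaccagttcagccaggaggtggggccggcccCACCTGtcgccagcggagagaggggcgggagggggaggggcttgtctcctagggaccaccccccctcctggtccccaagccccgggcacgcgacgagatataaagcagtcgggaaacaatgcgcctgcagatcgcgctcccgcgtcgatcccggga
Rph3a: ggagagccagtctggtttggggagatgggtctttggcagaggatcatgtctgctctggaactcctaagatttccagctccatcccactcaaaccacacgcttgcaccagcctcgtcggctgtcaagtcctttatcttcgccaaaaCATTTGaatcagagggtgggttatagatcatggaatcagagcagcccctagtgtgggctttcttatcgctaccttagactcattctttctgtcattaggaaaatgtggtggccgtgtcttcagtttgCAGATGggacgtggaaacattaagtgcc
The *Mycl* promoter (chr4:122995681-122995980, plus strand) holds CACCTG 106 bases before its RefSeq start. The *Rph3a* promoter (chr5:121010043-121010342, minus strand) holds CATTTG 105 bases before and CAGATG 22 bases after the start. The other 2 *Rph3a* promoters in RefSeq, not printed, hold 1 and 4 matches of CANNTG, of which 2 in the latter are CAGCTG, a form in 16.3% of all promoters. The *Myb* promoter holds CATCTG 29 bases after its start, and that of *Slc9a9* holds CAGTTG 203 bases before and CATCTG 24 bases after its start. CANNTG is in 72.3% of all 32851 mouse promoters of this length, so that its presence sets none of these genes apart. The form CACGTG is in 7.15% of all promoters and in neither of the promoters printed.

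In both libraries, early cells had higher levels of all 5 genes than stem cells. *Scx* was at 14.5 CPM (12.7–16.4) in male and 15.9 CPM (13.9–18.1) in female stem cells, and at 68.8 CPM (62.8–75.3) and 90.0 CPM (81.0–99.7) in early cells. *Mycl* was at 18.2 CPM (16.2–20.4) and 17.1 CPM (15.1–19.4) in stem cells and at 233 CPM (222–245) and 212 CPM (198–227) in early cells. *Myb* was at 23.4 CPM (21.2–25.9) and 11.8 CPM (10.1–13.7) in stem cells and at 104 CPM (96.7–112) and 63.1 CPM (55.6–71.3) in early cells. No interval of an early level reached that of the stem level of the same library for any of the 5 genes. *Rph3a* was at 5.49 CPM (4.42–6.75) and 11.8 CPM (10.1–13.7) in stem cells and at 44.4 CPM (39.6–49.6) and 66.0 CPM (58.4–74.4) in early cells. *Slc9a9*, which had the fewest UMIs of the 5, was at 1.57 CPM (1.03–2.30) and 2.16 CPM (1.47–3.06) in stem cells and at 12.9 CPM (10.4–15.9) and 23.2 CPM (18.8–28.4) in early cells. The ratio of early to stem cells was 4.75 and 5.67 for *Scx*, 12.8 and 12.4 for *Mycl*, 4.45 and 5.36 for *Myb*, 8.08 and 5.61 for *Rph3a* and 8.24 and 10.8 for *Slc9a9*. All 5 were at least 3-fold higher in both libraries, with 1 CPM added to each level, as were 1.18% of the 8645 genes that reached 10 CPM in stem or early cells in each of the libraries. The median ratio of those genes was 0.998 in the male library and 0.987 in the female one. The genes were chosen for this pattern, and nothing is read from the count.

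**Figure D1:**
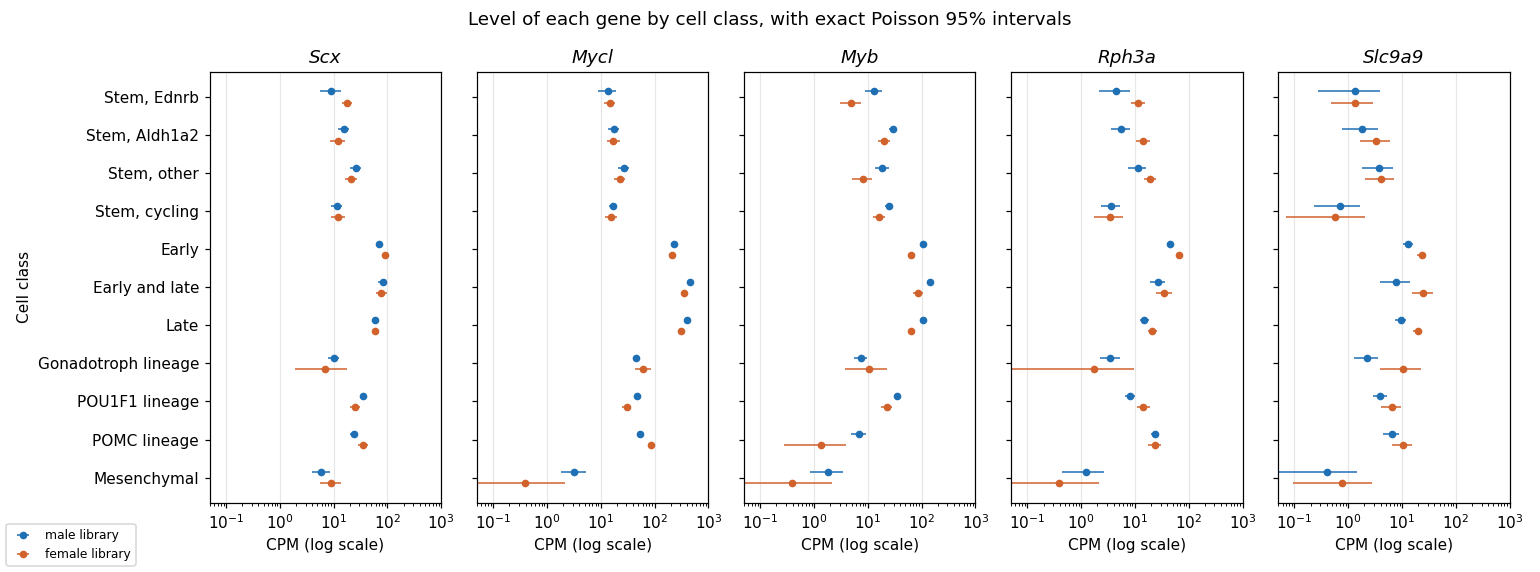
Level of each gene (CPM, log axis) in 11 classes of cells, with points for the male and female libraries and bars for exact Poisson 95% intervals. The top value of every gene is in early, late, or early and late cells in both libraries, and the mesenchymal values are the lowest except for *Scx* (female gonadotroph lineage) and *Slc9a9* (female cycling stem cells).

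Early and late cells ranked differently for the 5 genes. *Rph3a* was at 14.8 CPM (12.2–17.9) in male and 21.1 CPM (17.5–25.3) in female late cells, so that early cells had 2.99 (2.21–4.07) and 3.13 (2.30–4.26) times as much. *Mycl* was at 404 CPM (389–418) and 316 CPM (301–331) in late cells, and its ratio of early to late cells was 0.578 (0.531–0.630) and 0.671 (0.598–0.752). *Myb* was at 107 CPM (99.2–114) and 63.2 CPM (56.7–70.2), with ratios of 0.978 (0.847–1.13) and 0.998 (0.792–1.26). *Rph3a* was thus lower and *Mycl* higher in late than in early cells, while the intervals of *Myb* overlapped. *Scx* was at 58.8 CPM (53.4–64.7) and 58.6 CPM (52.4–65.4) in late cells, and its ratio had limits that included 1 in the male library, 1.17 (0.971–1.41), and did not in the female library, 1.53 (1.24–1.90). *Slc9a9* was at 9.40 CPM (7.31–11.9) and 19.7 CPM (16.1–23.7), with ratios of 1.38 (0.874–2.17) and 1.18 (0.792–1.76), whose limits include 1 while all cells of these classes are kept. *Rph3a* was the only one of the 5 at least 2-fold higher in early than in late cells in both libraries, as were 5.23% of 8475 genes.

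Proliferating cells were spread unevenly over these classes, and the 8 proliferation markers summed to 568 and 378 CPM in early cells and to 76.0 and 124 CPM in late cells. Without cells that had UMIs of 2 or more of these markers, the ratio of early to late cells was 0.790 and 0.759 for *Mycl* and 3.58 and 3.56 for *Rph3a*. The order of early and late cells was therefore the same for both genes without them. Without the same cells, the ratio was 1.55 and 1.73 for *Scx* and 1.24 and 1.11 for *Myb*. The male intervals of early and late cells, which overlapped for both genes with these cells, were then apart, at 93.3 CPM (84.6–102) and 60.2 CPM (54.6–66.2) for *Scx* and at 135 CPM (125–146) and 109 CPM (101–117) for *Myb*. The same held for male *Slc9a9*, at 17.6 CPM (13.9–21.8) in early and 9.41 CPM (7.28–11.97) in late cells. Its ratio was then 1.87 in the male library and 1.31 in the female one, where the intervals still overlapped. With classes set on thinned cells instead, the ratio of early to late cells was 4.63 and 3.20 for *Rph3a* and 1.31 and 0.9996 for *Myb*.

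Cells that met both the early and the late rule held the highest *Mycl* value of any class, at 449.8 CPM (416–486) in the male library and 349 CPM (312–389) in the female one, with intervals that overlapped those of late cells. *Myb* was at 145 CPM (125–166) and 86.5 CPM (68.7–107) in these cells, apart from early and late cells in the male library and overlapping both in the female library. *Rph3a* was at 26.9 CPM (19.1–36.9) and 35.2 CPM (24.3–49.5), between early and late cells, though the female interval overlapped that of late cells. *Scx* was at 81.5 CPM (67.3–97.8) and 76.9 CPM (60.1–96.8), which overlapped early cells in both libraries. *Slc9a9* was at 7.79 CPM (3.89–13.9) and 24.6 CPM (15.6–36.8), with intervals that overlapped both early and late cells.

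The 5 genes had different orders over the endocrine lineages. *Scx* was at 35.2 CPM (31.9–38.9) in the POU1F1, 23.9 CPM (20.04–28.3) in the POMC and 9.95 CPM (7.77–12.6) in the gonadotroph lineage of the male library, with no overlap between them. In the female library it was at 35.7 CPM (28.3–44.4) in the POMC and 25.1 CPM (20.2–30.7) in the POU1F1 lineage, with intervals that overlapped, and at 6.92 CPM (1.89–17.7) in the gonadotroph lineage, from 4 UMIs. The gonadotroph lineage was thus the lowest endocrine class for *Scx* in both libraries. *Rph3a* had its highest endocrine value in the POMC lineage, at 24.1 CPM (20.2–28.5) and 23.2 CPM (17.3–30.4). That was 2.96 (2.02–4.34) times the level of the POU1F1 lineage in the male library and 1.62 (0.928–2.84) times in the female library, where the limits include 1. *Myb* was higher in the POU1F1 than in the POMC lineage, at 34.9 CPM (31.5–38.5) and 22.4 CPM (17.8–27.7) in the POU1F1 lineage and at 6.73 CPM (4.76–9.23) and 1.34 CPM (0.276–3.91) in the POMC lineage, the last from 3 UMIs. Its gonadotroph lineage levels were 7.43 CPM (5.57–9.72) and 10.4 CPM (3.81–22.6), which overlapped those of the POMC lineage.

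*Mycl* was at 45.4, 46.5 and 54.7 CPM in the gonadotroph, POU1F1 and POMC lineages of the male library, whose intervals overlapped. In the female library it was at 62.3 CPM (43.6–86.3), 30.7 CPM (25.3–36.9) and 86.6 CPM (74.8–99.7), with the POU1F1 lineage below the others. *Slc9a9* was between 2.24 and 6.37 CPM in the male and between 6.47 and 10.4 CPM in the female endocrine lineages. *Mycl*, *Myb* and *Rph3a* were at least 3-fold higher in early cells than in all endocrine cells together in both libraries, as were 1.62% of 8897 genes, and *Scx* and *Slc9a9* were not.

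Within lineages, some levels differed with *Sox2* and with the hormone genes. These splits were made without thinning, so that a *Sox2* UMI was more likely to be found in a deeper cell. Scrublet scored 11.6% and 8.78% of POU1F1, 10.4% and 5.41% of gonadotroph and 12.3% and 3.03% of POMC lineage cells among its highest. For all cells the shares were 8.33% and 4.57%. The part of depth and of doublets in the differences below was not tested. In the male POU1F1 lineage, *Mycl* was at 14.4 CPM (11.3–18.2) in the 377 cells without and at 71.9 CPM (65.4–78.8) in the 313 cells with a *Sox2* UMI. The female values were 9.71 CPM (5.76–15.3) and 51.7 CPM (41.9–63.1). *Scx* in the same cells was at 36.6 CPM (31.5–42.4) without and 34.1 CPM (29.7–39.0) with *Sox2* in the male library, and at 18.9 CPM (13.2–26.3) and 31.2 CPM (23.7–40.4) in the female library. *Mycl* thus differed with *Sox2* in this lineage in both libraries, while the intervals of *Scx* overlapped. *Myb* there was at 20.8 CPM (17.0–25.2) without and 46.0 CPM (40.9–51.6) with *Sox2* in male and at 21.6 CPM (15.4–29.4) and 23.2 CPM (16.8–31.2) in female cells, apart in the male library alone. In the gonadotroph lineage, *Mycl* was at 25.9 CPM (21.4–31.0) without and 80.2 CPM (69.6–91.9) with *Sox2* in male and at 18.6 CPM (6.81–40.4) and 118 CPM (79.5–168) in female cells. *Scx* differed with *Sox2* in male cells of that lineage, at 5.04 CPM (3.20–7.56) and 18.7 CPM (13.8–24.8) while in female cells both values rest on 2 UMIs. In the male gonadotroph lineage, *Mycl* was at 125 CPM (100.3–154) in the 56 cells with fewer than 100 UMIs of *Cga*, the gene of the alpha subunit of the gonadotropins, and at 36.8 CPM (32.3–41.8) in the 375 others. *Myb* was at 30.2 CPM (18.7–46.2) and 4.97 CPM (3.40–7.02) in these cells, and at 20.3 CPM (4.18–59.3) and 6.98 CPM (1.44–20.4) in the female ones, from 3 UMIs each and with intervals that overlapped. In the female gonadotroph lineage, 11 cells with little *Cga* had 176 CPM (115–258) of *Mycl* and the other 26 had 23.3 CPM (11.2–42.8). Gonadotroph lineage cells with less *Cga* thus had more *Mycl* in both libraries. In the POMC lineage, *Mycl* was at 53.8 CPM (43.9–65.3) without and 55.2 CPM (47.9–63.2) with *Sox2* in male cells and at 69.7 CPM (50.5–93.9) and 93.0 CPM (78.7–109) in female ones, with intervals that overlapped. *Rph3a* in this lineage was at 26.7 CPM (19.8–35.0) without and 22.8 CPM (18.2–28.1) with *Sox2* in the male library and at 17.8 CPM (8.91–31.9) and 25.2 CPM (18.1–34.2) in the female library, with intervals that overlapped.

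Among stem cells, *Myb* differed between subsets. In stem cells with at least 3 UMIs of *Aldh1a2*, the gene of a retinaldehyde dehydrogenase, and none of *Ednrb*, the gene of an endothelin receptor, *Myb* was at 29.5 CPM (24.7–35.0) in the male library and 19.9 CPM (15.4–25.4) in the female one. In stem cells with at least 2 UMIs of *Ednrb* it was at 13.0 CPM (8.68–18.6) and 4.86 CPM (3.05–7.36). The ratio was 2.28 (1.33–4.03) and 4.10 (2.09–8.32), and for the other 4 genes its limits included 1 in both libraries. Cycling stem cells, with UMIs of 2 or more proliferation markers, had 24.7 CPM (21.2–28.6) and 16.2 CPM (12.3–21.0) of *Myb*. *Rph3a* was at 3.64 CPM (2.38–5.34) and 3.41 CPM (1.76–5.96) in these, against 11.2 CPM (7.53–15.9) and 19.3 CPM (14.6–24.9) in stem cells of no named subset. In the *Ednrb* subset it was at 4.47 CPM (2.14–8.22) and 11.5 CPM (8.59–15.1) and in the *Aldh1a2* subset at 5.55 CPM (3.59–8.19) and 14.2 CPM (10.4–18.9), which overlapped the cycling cells in the male library and not in the female one. *Scx* had its highest value among the stem subsets in cells of no named subset, at 26.0 CPM (20.3–32.9) and 21.3 CPM (16.4–27.2).

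Mesenchymal cells had low levels of every gene. *Mycl* was at 3.23 CPM (1.85–5.25) in male mesenchymal cells and had 1 UMI in female ones. *Myb* had 9 and 1, *Rph3a* 6 and 1 and *Slc9a9* 2 and 2 UMIs over all mesenchymal cells of the male and female libraries. *Scx*, known from mesenchymal tendon cells, was at 5.86 CPM (3.93–8.42) and 8.95 CPM (5.67–13.4), and these cells held 0.869% and 1.08% of its UMIs. All 5 genes were at least 3-fold higher in early than in mesenchymal cells in both libraries, as were 7.13% of 9248 genes.

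Detection in single cells was compared at a depth of 5000 UMIs, drawn at random from every cell that had as many, in 6783 male and 5424 female cells. *Mycl* was then found in 60.2% (55.1–65.1) of male and 53.7% (48.0–59.4) of female early cells, in 81.6% (77.9–85.0) and 74.5% (69.9–78.7) of late cells and in 7.27% (5.84–8.93) and 7.26% (5.91–8.81) of stem cells. *Rph3a* was found in 20.4% (16.5–24.8) and 24.4% (19.7–29.6) of early, 6.33% (4.34–8.86) and 8.16% (5.65–11.3) of late and 2.86% (1.97–3.99) and 4.94% (3.83–6.27) of stem cells. The order of early and late cells was thus the same as for the summed levels. In early cells, *Scx* was found in 30.2% and 30.3%, *Myb* in 36.7% and 20.8% and *Slc9a9* in 6.46% and 10.4%. The share in mesenchymal cells is read as background for the genes other than *Scx*. *Mycl* was found in 0.833% and 0.364% of these cells, *Myb* in 0.625% and 0.364%, *Rph3a* in 0.417% and 0.364% and *Slc9a9* in 0.00% (0.00–0.766) and 0.727%. *Scx* was found in 2.08% and 4.36% of them, and no background is read from it. Over all cells *Scx* was below *Mycl*, at 31.5 and 33.8 CPM against 110 and 92.8 CPM, but in mesenchymal cells it was above it. Median UMIs before thinning were 14295 and 11108.5 in early, 13783 and 13270 in late, 10680.5 and 9557 in stem and 7918 and 7622 in mesenchymal cells. Without thinning, *Mycl* was found in 76.9% and 71.9%, *Myb* in 57.7% and 37.1%, *Scx* in 49.6% and 51.6%, *Rph3a* in 36.4% and 43.5% and *Slc9a9* in 17.4% and 22.3% of early cells.

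Over all thinned cells, each of the 5 genes was found more often in cells with than without a UMI of *Cdkn1a*, *Dll1* or *Lef1*, with intervals apart in both libraries. The genes were chosen as genes of early cells, which are set by *Cdkn1a* and *Dll1*. These shares are therefore a description and support nothing. The highest share was that of *Mycl* in cells with *Lef1*. Of the male cells with *Lef1*, 64.9% (61.9–67.9) had *Mycl*, against 20.6% (19.6–21.7) of those without it. The female shares were 60.3% (56.6–64.0) and 17.3% (16.2–18.4). *Myb* was found in 30.0% (27.1–32.9) of male cells with *Lef1* and 12.4% (11.6–13.3) without it, and in 24.5% (21.4–27.8) and 6.81% (6.11–7.57) of female cells. *Lef1* thus went with *Mycl* and with *Myb*. *Rph3a* was found in 14% (11.4–16.9) of male cells with *Cdkn1a* and in 4.54% (4.04–5.10) without it, and in 16.1% (13.2–19.3) and 8.32% (7.56–9.13) of female cells. With *Dll1* as the partner, *Rph3a* was in 11.8% (9.86–13.9) and 4.32% (3.81–4.88) of male and in 18.5% (15.9–21.3) and 7.46% (6.72–8.26) of female cells.

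*Scx* was in 26.1% (22.8–29.7) of male cells with *Cdkn1a* and 11.7% (10.9–12.5) without it, and in 23.7% (20.3–27.3) and 11.5% (10.7–12.5) of female cells. *Slc9a9* was in 4.61% (3.41–6.09) of male cells with *Dll1* and 1.82% (1.49–2.20) without it, and in 6.40% (4.83–8.29) and 2.74% (2.29–3.26) of female cells. Cells without a UMI of the partner held these genes too. Without thinning, *Mycl* with and without *Lef1* was in 73.5% and 21.0% of male and 77.4% and 21.6% of female cells. *Myb* with and without *Lef1* was then in 47.1% and 15.2%, and in 40.7% and 10.8%. *Rph3a* with and without *Cdkn1a* was in 24.6% and 6.41%, and in 28.2% and 12.8%. The direction was the same at both depths for these pairs, and also for *Scx* with *Cdkn1a* (39.7% and 14.6%, and 38.2% and 19.0%).

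*Sox2* separated the cells less. After thinning, *Mycl* was found in 30.2% (28.8–31.5) of male cells with *Sox2* and 22.0% (20.3–23.7) without it, and in 23.1% (21.9–24.4) and 22.0% (19.6–24.6) of female cells. The intervals were apart in the male library and overlapped in the female one, and so did those of *Myb*, at 18.5% and 8.75% in the male library and 9.18% and 8.93% in the female one. *Scx* had the same form, at 14.4% and 10.5% in the male library and 13.4% and 10.7% in the female one. *Slc9a9* was found in 2.24% and 2.25% of male and 3.22% and 3.61% of female cells, with intervals that overlapped in both. *Rph3a* was the only one of the 5 with intervals apart in both libraries, at 6.73% (6.01–7.51) and 3.08% (2.43–3.86) in the male library and 9.97% (9.09–10.9) and 5.95% (4.63–7.51) in the female one. Without thinning, the share in cells with *Sox2* over that in cells without it was 2.65 and 1.94 for *Mycl* and 4.002 and 2.30 for *Myb*, at other depths and with the shallower cells included. *Sox2* was found in 4384 of the 6783 male and 4315 of the 5424 female thinned cells. Of cells with 1 of the 5 genes, the share that had *Sox2* went from 64.5% of those with *Slc9a9* to 79.9% of those with *Rph3a* in the male library, and from 77.7% to 86.7% for the same genes in the female library.

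**Figure D2:**
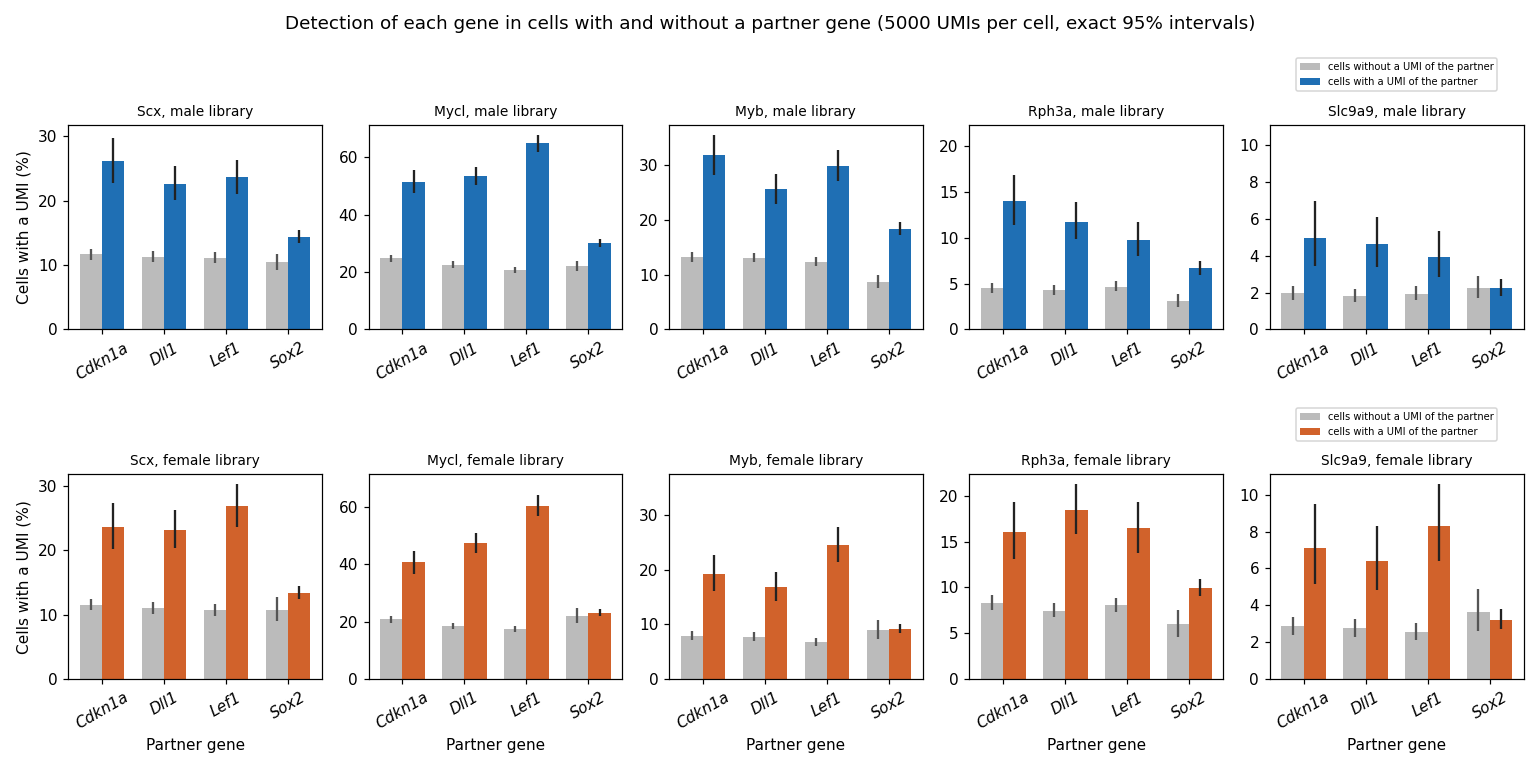
Percent of cells with a UMI of each gene (y axis) among cells without and with a UMI of the partner gene on the x axis, at 5000 UMIs per cell, with exact 95% intervals, for the male and the female library. *Mycl* in cells with *Lef1* reaches the highest shares, 64.9% and 60.3%, while cells with and without *Sox2* differ least.

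Among thinned cells outside the endocrine and mesenchymal classes, *Cdkn1a* and *Dll1* each went with higher levels. This too is a description, given how the genes were chosen. *Scx* was at 28.8 CPM (26.4–31.4) in male cells with neither, at 75.2 CPM (63.8–87.9) with *Cdkn1a* only, at 64.2 CPM (56.2–73.0) with *Dll1* only and at 98.1 CPM (77.4–123) with both. The female values were 26.1 CPM (23.8–28.6), 65.5 CPM (54.7–77.8), 59.5 CPM (51.4–68.5) and 98.6 CPM (77.0–124). *Rph3a* was at 10.0 CPM (8.65–11.6), 28.4 CPM (21.6–36.7), 24.2 CPM (19.4–29.9) and 58.6 CPM (42.9–78.2) in the male library. Each of the 5 genes had its highest value in cells with both partners in both libraries. *Lef1* separated *Mycl* further, since in male cells with *Cdkn1a* or *Dll1* it was at 204 CPM (191–217) without and 389 CPM (362–418) with *Lef1*, and in female cells at 132 CPM (122–144) and 314 CPM (288–342). For *Rph3a* the same split gave 28.6 CPM (23.9–34.0) and 32.3 CPM (24.8–41.3) in male and 50.8 CPM (44.3–58.1) and 57.6 CPM (46.7–70.2) in female cells, with intervals that overlapped.

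A like split was present among the early cells, without thinning. *Mycl* was at 116 CPM (105–127) in the 208 male early cells without *Lef1* and at 371 CPM (349.9–392) in the 199 with it, and at 135 CPM (119.6–152) in 165 and 292 CPM (269–317) in 145 female early cells. *Myb* was at 58.1 CPM (50.7–66.4) and 158 CPM (144–172) in the male library and at 38.4 CPM (30.4–47.8) and 88.7 CPM (76.2–103) in the female one. *Rph3a* was at 40.8 CPM (34.6–47.8) and 48.6 CPM (41.3–56.8), and at 66.2 CPM (55.6–78.3) and 65.8 CPM (55.0–78.0). Early cells with *Lef1* thus had more *Mycl* and *Myb*, and the intervals of *Rph3a* overlapped. *Scx* was at 49.9 and 90.9 CPM and at 71.5 and 109 CPM, and *Slc9a9* at 8.27 and 18.4 CPM and at 11.04 and 35.9 CPM, all with intervals apart. Among late cells, *Mycl* was at 384 CPM (350.4–420.2) without and 407 CPM (392–424) with *Lef1* in the male library and at 336 CPM (299–376) and 312 CPM (296–329) in the female one, where the intervals overlapped.

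**Figure D3:**
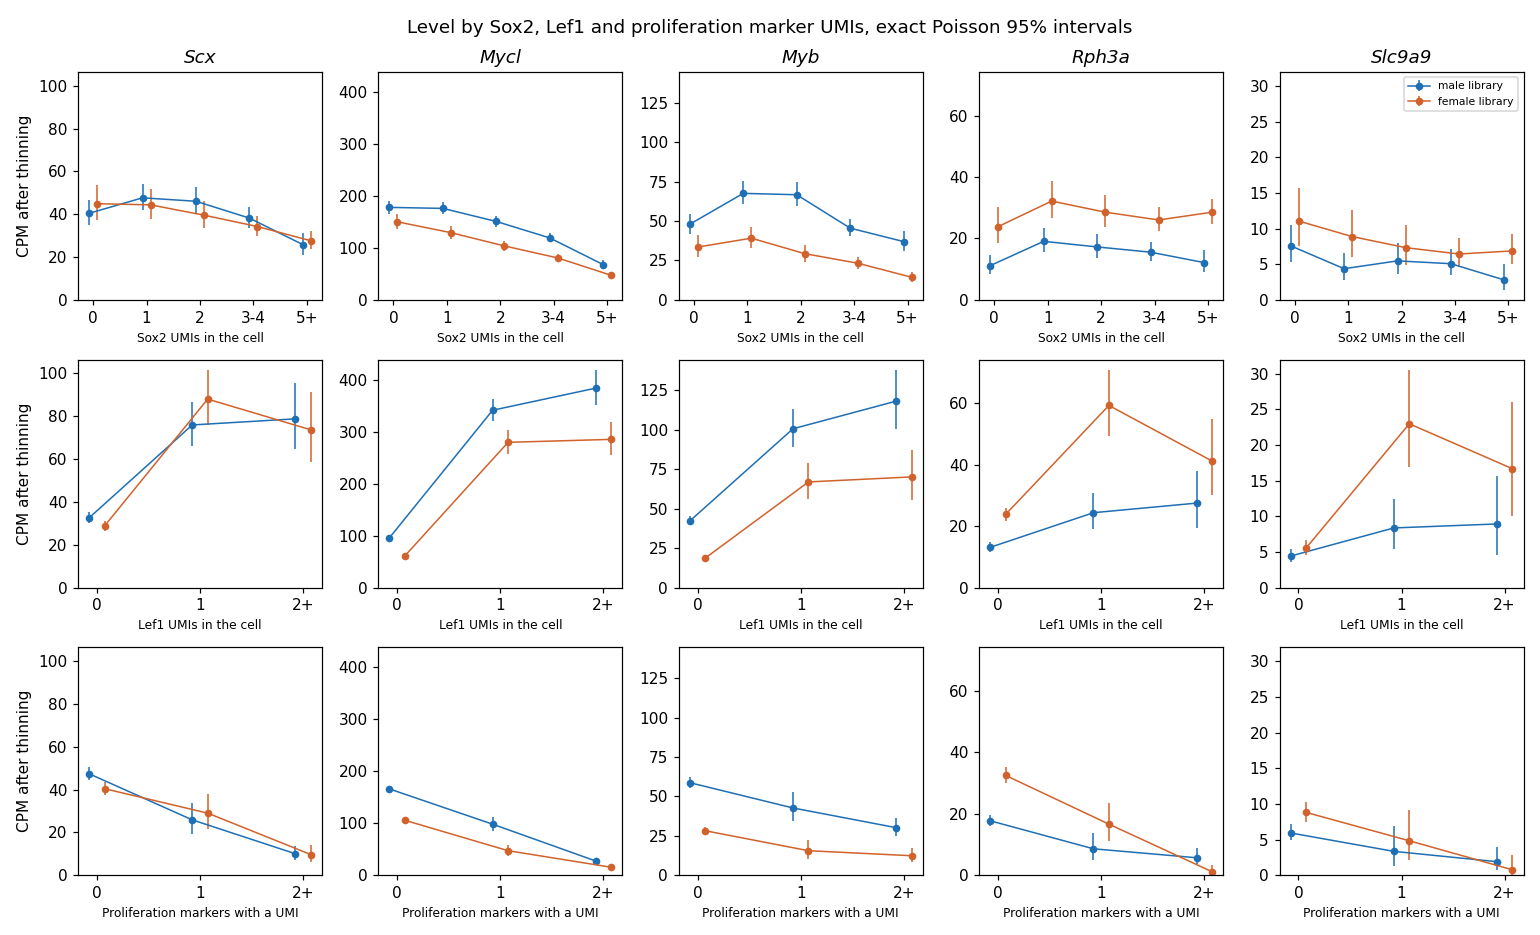
Level of each gene (CPM after thinning, y axis) by the UMIs of *Sox2* (top), the UMIs of *Lef1* (middle) and the number of 8 proliferation markers with a UMI (bottom), in cells outside the endocrine and mesenchymal classes, with exact Poisson 95% intervals. *Mycl* is at 178 and 150.1 CPM in cells with no *Sox2* UMI and at 67.8 and 47.3 CPM in cells with 5 or more, and all 5 genes are lowest in cells with 2 or more proliferation markers.

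In the POU1F1 and gonadotroph lineages, without thinning, *Mycl* was higher with *Sox2*. Outside the endocrine and mesenchymal classes, after thinning, it was instead lower in cells with more *Sox2*. It was at 178 CPM (166–190.3) in male cells without *Sox2* and at 67.8 CPM (59.97–76.5) in those with 5 or more UMIs. The female values were 150.1 CPM (136–165) and 47.3 CPM (42.1–52.9). *Rph3a* was at 11.2 CPM (8.36–14.6) and 12.2 CPM (8.96–16.1) in the male library and at 23.9 CPM (18.5–30.3) and 28.5 CPM (24.6–33.0) in the female one, with intervals that overlapped. Cells with UMIs of 2 or more proliferation markers had less of each gene than cells with none. *Scx* was at 47.4 CPM (44.4–50.6) in male cells with none of these markers and at 10.1 CPM (7.09–13.9) in those with 2 or more, and at 40.4 CPM (37.7–43.4) and 9.69 CPM (6.27–14.3) in female cells. *Mycl* was at 166 CPM (160.3–172) and 27.5 CPM (22.4–33.4), and at 106 CPM (101–110.4) and 15.5 CPM (11.1–21.1). *Myb* was at 58.7 CPM (55.3–62.3) and 30.2 CPM (24.8–36.4), and at 28.2 CPM (25.9–30.7) and 12.4 CPM (8.48–17.5). Early cells showed the same order, since the 76 male and 31 female early cells with 2 or more of these markers had 51.1 CPM (42.3–61.1) and 42.5 CPM (28.7–60.7) of *Mycl*, against 326 CPM (310.1–343) and 247 CPM (231–265) in the rest. Stem cells did not show it for *Myb*, nor for *Mycl* and *Scx* against the *Ednrb* and *Aldh1a2* subsets. Cycling stem cells had 24.7 and 16.2 CPM of *Myb*, above the *Ednrb* subset, at 13.0 and 4.86 CPM. The *Aldh1a2* subset, at 29.5 and 19.9 CPM, had intervals that overlapped those of cycling cells. *Mycl* was at 17.1 and 15.6 CPM in cycling stem cells. It was at 13.4 and 14.6 CPM in the *Ednrb* and 17.3 and 17.2 CPM in the *Aldh1a2* subset. The intervals of both subsets overlapped those of cycling cells for *Mycl* and for *Scx*. Stem cells of no named subset had intervals above those of cycling cells for both genes in the male library alone.

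The 5 genes were also found together, which is a description as well, since they were chosen for a shared pattern. *Myb* was in 30.0% (27.9–32.2) of thinned male cells with *Mycl* and in 9.40% (8.60–10.3) of those without it, and in 21.5% (19.2–23.9) and 5.45% (4.78–6.18) of female cells. *Slc9a9* was in 4.71% (3.79–5.77) of male cells with *Mycl* and 1.32% (1.02–1.68) without it, and in 7.89% (6.45–9.53) and 1.94% (1.54–2.40) of female cells. These were the pairs with the highest ratios, and *Rph3a* with *Myb* had the lowest of the female library, with *Rph3a* in 13.1% (10.3–16.4) and 8.74% (7.97–9.57) of cells with and without *Myb*. At 5000 UMIs, 2 or more of the 5 genes were found in 50.1% (45.0–55.2) of male and 43.6% (38.0–49.4) of female early cells, and in 44.7% (40.2–49.2) and 41.3% (36.4–46.4) of late cells. In stem cells the shares were 3.29% (2.34–4.49) and 2.39% (1.63–3.38). None of the 5 was found in 22.2% (18.2–26.7) and 24.8% (20.03–30.0) of early cells. In late cells that share was 8.78% (6.42–11.6) and 14.3% (10.98–18.1).

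**Figure D4:**
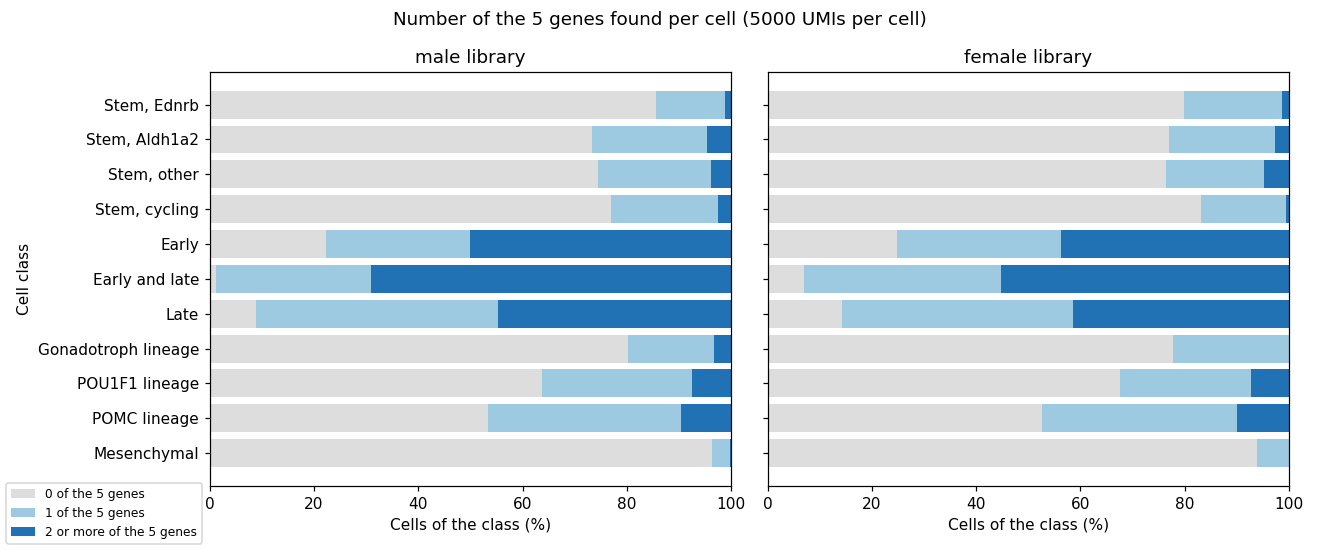
Percent of the cells of each class (x axis) in which none, 1 or at least 2 of the 5 genes had a UMI at 5000 UMIs per cell, for the male and female libraries. At least 2 genes were found in 50.1% and 43.6% of early cells, and the share is largest in cells that met both the early and the late rule, at 69.0% and 55.2%.

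The male and female libraries differed in the level of some of these genes, with no replicate to set the difference against. *Myb* was higher in the male library, with a ratio of male to female level of 1.65 (1.36–2.01) in early, 1.69 (1.41–2.01) in late and 1.99 (1.55–2.57) in stem cells. *Rph3a* was lower in the male library, with ratios of 0.672 (0.532–0.850) in early and 0.467 (0.323–0.671) in stem cells, and of 0.703 (0.481–1.03) in late cells, where the limits include 1. Stem cells were made up differently in the libraries, with 189 male and 440 female cells in the *Ednrb* subset and 362 and 219 cycling cells. Within the *Ednrb*, *Aldh1a2* and cycling subsets the ratio was 2.67 (1.18–6.11), 1.48 (0.974–2.27) and 1.52 (1.01–2.33) for *Myb*, and 0.389 (0.142–0.958), 0.391 (0.190–0.785) and 1.07 (0.400–3.03) for *Rph3a*. *Slc9a9* had ratios of 0.557 (0.366–0.846) in early and 0.478 (0.308–0.737) in late cells, and of 0.727 (0.335–1.57) in stem cells, where the limits include 1. *Myb* and *Slc9a9* thus lay on opposite sides of 1. *Scx* had a ratio of 0.765 (0.630–0.929) in early and 1.004 (0.817–1.23) in late cells, and *Mycl* one of 1.10 (0.981–1.24) in early and 1.28 (1.17–1.39) in late cells. With 1 CPM added, *Myb* was the only one of the 5 at least 1.5-fold higher in male early cells, as were 3.46% of 8712 genes, and *Slc9a9* the only one at least 1.5-fold higher in female early cells, as were 1.57%. Either way, that was 2 of the 5 genes, against 5.03% of all genes. Depth differed too, at a median of 14295 UMIs in male and 11108.5 in female early cells, and its part in these ratios was not tested.

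Relatives of the 5 genes were compared in the same way, and many of them did not pass the same minimum of 10 CPM in stem or early cells in each of the libraries. Of 13 gene symbols listed for the MYC network, 12 matched a feature and 9 passed it. None of these was at least 3-fold higher or lower in early than in stem cells in both libraries, against 1.18% and 0.0578% of all genes, and their median ratio was 1.24 in the male library and 1.33 in the female one. *Mycn*, a MYC family gene known from neural progenitors, was at 11.4 and 14.2 CPM in stem, 37.8 and 40.8 CPM in early and 43.6 and 34.4 CPM in late cells. *Mxi1*, whose product opposes MYC, was at 42.2 and 49.9 CPM in stem, 83.6 and 86.3 CPM in early and 167 and 141 CPM in late cells. *Myc* itself was at 9.54 and 9.96 CPM in stem and 13.8 and 14.2 CPM in early cells. *Mxd3*, another gene of the network, was at 30.1 and 19.8 CPM in stem, 13.8 and 8.07 CPM in early and 3.54 and 3.64 CPM in late cells. Over these 3 classes *Mxi1* thus had the same order as *Mycl*, and *Mxd3* the reverse, while in the gonadotroph lineage *Mxi1* was at 161 and 159 CPM, above its early level, and *Mycl* was below its own. Of 2 further MYB genes, *Mybl1* passed the minimum, at 10.1 and 8.22 CPM in stem, 15.4 and 18.6 CPM in early and 24.0 and 21.5 CPM in late cells, a ratio of early to stem cells of 1.48 and 2.12 with 1 CPM added.

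None of 9 bHLH genes related to *Scx* passed the minimum. *Tcf21* and *Twist1*, transcription factor genes of mesenchymal cells, were at 713 and 572 CPM and at 205 and 229 CPM in mesenchymal cells, and below 1 CPM in early cells. Of 7 tendon genes, *Egr1* and *Egr2* passed the minimum, with a median ratio of early to stem cells of 1.08 and 0.982. *Tnmd*, the gene of the tendon protein tenomodulin, was at 0.287 CPM in male early cells and had no UMI in female ones. *Fmod* and *Kera* had no UMI in the early cells of either library, and *Mkx* and *Thbs4* were at 1.29 and 0.489 CPM and at 0.431 and 0.978 CPM.

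Of 17 genes of RAB3 and RAB27 proteins and their effectors, 5 passed the minimum in stem or early cells, none passed 3-fold in either direction in both libraries, and the median ratio of early to stem cells was 0.877 and 0.847. *Rab3a*, which encodes a partner of rabphilin, was at 14.7 and 9.78 CPM in early cells, 171 and 112 CPM in the gonadotroph and 149.9 and 106 CPM in the POMC lineage. *Rab27a*, of the other partner family, was at 4.71 and 4.32 CPM in stem cells, 10.3 and 6.60 CPM in early cells, 69.5 and 107 CPM in the gonadotroph and 62.3 and 62.5 CPM in the POMC lineage. *Sytl1*, another RAB27 effector gene, did not pass the minimum and was at 1.09 and 0.557 CPM in stem, 6.32 and 6.11 CPM in early and 21.9 and 14.4 CPM in late cells. Between early and gonadotroph lineage cells alone, *Rph3a* had the reverse order of *Rab3a* and *Rab27a*, at 44.4 and 66.0 CPM in early and 3.51 and 1.73 CPM in gonadotroph lineage cells, the last from 1 UMI. Of 12 genes of SLC9 exchangers and their regulators, 2 regulators passed the minimum, with a median ratio of 0.611 and 0.585. *Slc9a3r1*, which encodes a scaffold protein under the cell membrane, was at 269.9 and 198 CPM in stem, 141 and 84.6 CPM in early and 37.9 and 28.4 CPM in late cells. Its order was thus the reverse of that of *Slc9a9* between stem and early cells. *Slc9a8*, an exchanger gene of the Golgi, was at 6.28 and 5.71 CPM in stem and 7.33 and 4.65 CPM in early cells.

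**Figure D5:**
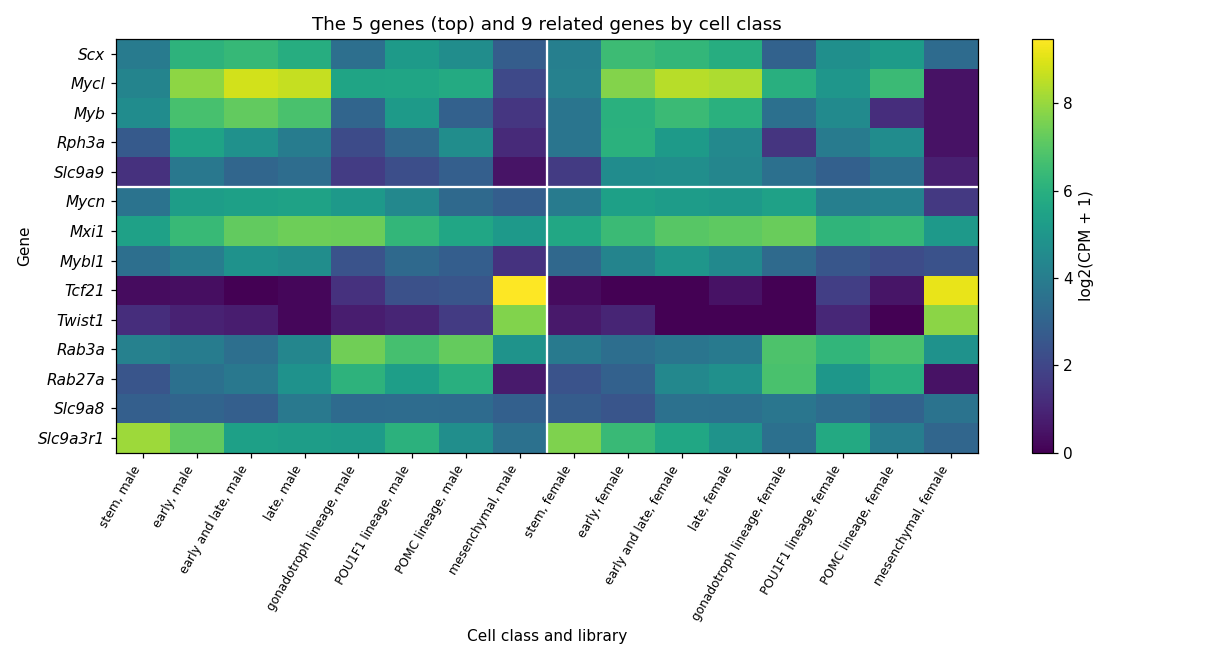
Level, as log2(CPM + 1), of the 5 genes (above the white line) and 9 related genes in 8 classes of cells, for the male and the female library. The 5 genes are brightest in early, early and late, or late cells, *Tcf21* and *Twist1* in mesenchymal cells, and *Rab3a* and *Rab27a* in endocrine lineages.

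The genes with the most similar order of levels were ranked by the lower of the Pearson correlations (r) of the male and female libraries, over log2(CPM + 5) in 11 classes, among 4616 genes with at least 50 CPM in a class. The 5 genes themselves are not in these rankings. The classes share their libraries and are not replicates. *Mycl* was most like *2310040G24Rik* (r of 0.97 and 0.99), *Dpysl5* (0.97 and 0.97), *Gch1* (0.96 and 0.95), *Hes6* (0.94 and 0.93) and *Pgls* (0.93 and 0.95). *Myb* was most like *Igkc* (0.97 and 0.97), followed by *Rcc2*, *Hspe1*, *Tcp11l1* and *Tma16*. *Scx* was, outside the 5 genes, most like *2310040G24Rik* (0.92 and 0.85), followed by *Map2k1*, *Timm10*, *Rrs1* and *Parl*. Outside the 5 genes, *2310040G24Rik* was also first for *Slc9a9* (0.90 and 0.95), followed by *Ckb*, *Dpysl5*, *Tekt1* and *Slco3a1*, and it was thus first for 3 of the 5 genes. *Rph3a* was most like *Mast4* (0.89 and 0.83), followed by *Id2*, *2310040G24Rik*, *Map2k1* and *Tekt1*. Between the 5 genes, r went from 0.67 and 0.62 for *Myb* with *Rph3a* to 0.94 for *Rph3a* with *Slc9a9* in the male library and 0.96 for *Mycl* with *Slc9a9* in the female one. By the lower r, *Scx* with *Rph3a* (0.88 and 0.90) was above the first gene named for either. *Mycl* with *Slc9a9* (0.91 and 0.96) was above the first gene named for *Slc9a9*.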

How the data were processed

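Cells were sorted from pooled glands and run as 2 droplet libraries. The authors aligned and counted the reads with Cell Ranger 3.0.2 against mm10 with an added eGFP sequence and deposited a table of UMI counts per gene and cell, without normalization. Both tables were analysed here with Python 3.11.15, scipy 1.17.1 and scanpy 1.11.5. Cells with fewer than 50 genes or a mitochondrial share above the library mean plus 3 SD were left out (159 male and 85 female). Counts were summed over each class and divided by the class total to give CPM. Detection was compared after drawing 5000 UMIs per cell without replacement (seed 1), which left out shallower cells. Folds over all genes used CPM + 1 in genes with at least 10 CPM. Doublets were kept, and cells with the highest Scrublet scores (867 male and 261 female) were left out as an alternative. Members, marker lists, relatives and class rules were chosen with earlier results of these data known. The genes named are the 5 members, the 4 partner genes, members of the related lists and the 5 non-member genes most like each member. *Scx*, *Myb* and *Slc9a9* overlap genes on the other strand.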

Additional observations from a re-analysis of the deposited data

How the results depend on the processing

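Every ratio of early to stem cells stayed above 1 and every ratio of early to late cells that had limits on one side of 1 kept its side, under each alternative run. Male ratios of *Scx* and *Myb*, whose limits included 1, moved upwards, as given here. The male early to late ratio of *Slc9a9*, whose limits included 1 too, rose from 1.38 by less than counting error. It was 1.85 with raised marker minimums and 1.76 with classes set on thinned cells. Without proliferating cells it was 1.87, and its male early and late intervals were then apart. With each marker minimum raised by 1 UMI, the early to stem ratio moved to 6.93 (male) and 7.35 (female) for *Scx*, 16.6 and 18.7 for *Mycl* and 6.45 (male) for *Myb*, and the early to late ratio to 1.55 (male) for *Scx*, 0.682 and 0.852 for *Mycl* and 1.33 (male) for *Myb*. With classes set on cells thinned to 5000 UMIs, the male early to stem ratio of *Scx* was 6.13, and the male early to late ratio was 1.70 for *Scx*, 0.799 for *Mycl*, 1.31 for *Myb* and 4.63 for *Rph3a*. Without cells with 2 or more proliferation markers, an alternative chosen after seeing the data, the male early to stem ratio was 17.1 for *Mycl* and 6.01 for *Myb*, and the early to late ratio was 1.55 (male) for *Scx*, 0.790 and 0.759 for *Mycl* and 1.24 (male) for *Myb*. The cause of these shifts was not tested. Of the other values of these ratios, 48 of early to late and 52 of early to stem moved by less than counting error. Among the latter, the male ratio of *Slc9a9* went from 8.24 to 13.4 with raised marker minimums, inside its wide limits (4.52–15.5). Leaving out the cells with the highest Scrublet scores, or taking CPM without hormone, mitochondrial and ribosomal protein genes, moved none of the 10 ratios of male to female beyond it. Of the shares of cells with *Dll1*, 27 moved and 23 did not. All 10 moved with no thinning and 9 of them with 3000 UMIs. Of the levels in early cells 34 moved and 26 did not. No paired analysis was possible because each sex had 1 library.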
